A study of Mus musculus with 12 samples.

Results

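The comparison described here is deletion of Tcf7 alone in bone marrow natural killer (NK) cells: 3 libraries of the group Tcf1KO against 3 of the group Ctrl, 6 of the 12 libraries of the series, chosen by their labels. NK cells are innate lymphocytes that kill infected or transformed cells. They were sorted from bone marrow of C57Bl/6 mice as NK1.1+CD49b+ (1 label writes the second marker as CD9b), with no exclusion of CD3+ cells named, and their RNA was sequenced in bulk. Tcf1KO mice were Ncr1Cre Tcf7F/F, so that Cre recombinase, expressed where Ncr1 is, acts on floxed Tcf7. Ctrl mice had floxed alleles and no Cre. The series design gives them as Id2F/F or Id2F/FTcf7F/F and the sorting protocol as Id2F/F. Tcf1KO and Ctrl therefore differ in the presence of Cre and in the floxed alleles as well as in Tcf7, and by this comparison these cannot be told apart. The other groups, Id2KO (Ncr1Cre Id2F/F) and DKO (Ncr1Cre Id2F/F Tcf7F/F), also with 3 libraries each, differ from each other in floxed Tcf7 with Cre in both. DKO against Id2KO shares no library with Tcf1KO against Ctrl. It gives each gene a second value for removal of Tcf7, in cells with Id2 also deleted by their labels. Id2 RNA was higher in every DKO than in every Id2KO library, so these groups differ in it as well. No ages were used here, and the labels call the samples independent without tying each to an animal, so what the p-values measure is the spread among these samples, which may be technical.

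Tcf7 encodes TCF-1, a high mobility group transcription factor that binds DNA beside Lef1, its relative, and works with beta-catenin or with Groucho (TLE) corepressors. It acts early in T cell and innate lymphoid development. In NK cells it is known to be high in immature stages, to be needed for acquisition of some Ly49 receptors, Ly49A among them, and to restrain granzyme B. Ncr1 encodes NKp46, an activating receptor of NK cells and some other innate lymphoid cells.

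The 6 libraries held 13975523 (Ctrl replicate 2) to 20208160 (Tcf1KO replicate 3) reads assigned to genes, recovered from the FPKM values (a level per unit of gene length, scaled for sequencing depth). Mitochondrial ribosomal RNA took 25.6% to 29.5% of reads in Ctrl and 27.5% to 31.4% in Tcf1KO. Each of both groups had 1 library with Xist near 0 (0.0664 and 0.0845 FPKM) and the others lay between 172 and 246, so that sex by Xist was evenly spread. In DKO, replicate 2 had Xist at 124 FPKM together with the Y-linked Kdm5d at 3.62, so it held RNA with both. Ctrl replicate 2, Id2KO replicate 3 and DKO replicate 3 had the lowest array weights (0.59, 0.554 and 0.586), the measure of how well a library follows its group. Values below are FPKM by replicate 1, 2 and 3, or mean ± SD (n = 3). Differences are between means of log2(FPKM + 1), with the standard error (SE) of the fit, and adjusted p-values are from limma, adjusted by Benjamini-Hochberg over all 12384 genes tested. The 8 defining NK markers were present in all 6 libraries, with summed levels of 1667, 1451 and 1629 FPKM in Ctrl and 1196, 1133 and 1215 in Tcf1KO. Of the 8, 7 had negative differences (median -0.30 against -0.002 over all tested genes). In 6 every Tcf1KO library was below every Ctrl library (5.73% of all genes).

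Total Tcf7 RNA did not separate the groups. Tcf7 (ENSMUSG00000000782, chromosome 11, 52252371 to 52283014, minus strand, GRCm38) stood at 37.7, 38.6 and 46.5 FPKM in Ctrl and 29.6, 37.3 and 38 in Tcf1KO. The ranges overlapped, since 1 Tcf1KO library lay above the lowest Ctrl library. The difference was -0.22 ± 0.16 (SE; 95% interval -0.57 to 0.12; adjusted p = 0.999). A gene total also counts exons outside a floxed segment, so this value checks no label, and Tcf1KO below means the libraries so labelled. Lef1 stood at 5.87, 4.35 and 6.94 FPKM in Ctrl and 5.56, 4.89 and 7.02 in Tcf1KO (difference 0.03 ± 0.26, adjusted p = 1.0). Of 16 tested TCF/LEF factors and cofactors, 8 had positive and 8 negative differences with a median of -0.01. The libraries of Ctrl and Tcf1KO did not overlap in 0 of the 16, while they did not in 10.7% of all tested genes.

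No gene passed the threshold between Tcf1KO and Ctrl: 0 of 12384 genes (0.0%) had an adjusted p under 0.05 with limma, and 594 (4.8%) an unadjusted p under 0.05. The 6 libraries were fully separated in 1323 genes (10.7%), of which 614 were higher in Tcf1KO (4.96%) and 709 lower (5.73%). In DKO against Id2KO 15 genes passed (0.121%), and the average of both Tcf7 contrasts in the same fit, added after the data had been seen, called 46 (0.371%), 21 higher (0.17%) and 25 lower (0.202%). All 46 had the same sign in both contrasts, but 12 had an unadjusted p under 0.05 for a difference between the contrasts, so the average can be carried mainly by 1 of them. Many of these calls did not hold with 1 library fewer. When each of the 12 libraries was left out in turn, 5 of the 46 genes stayed under an adjusted p of 0.05 in all 12 fits, 5 in 6 to 11, 29 in 1 to 5 and 7 in none, with the sign kept throughout. This count is given below as the omissions that kept a call. The difference of the contrasts itself passed in 0 genes (735 at an unadjusted p under 0.05, 5.94%). In the rest of the text "rose" and "fell" are used only for genes that passed in the average or in DKO against Id2KO, and the values in Tcf1KO against Ctrl are given as levels.

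The sequence that TCF-1 is known to recognise was looked for in the 250 bases before the start of 24 genes, to show what the promoters of the genes furthest apart hold. They are the 12 in each direction with the smallest unadjusted p among those whose Tcf1KO and Ctrl libraries did not overlap, leaving out predicted genes and receptor segments. The letters searched were CTTTGA and CTTTGT on both strands, in RefSeq promoters on GRCm38.p6. Of the 24 genes 18 had an entry, with 21 promoters, and 3 promoters held a match (14.3%), against 21.1% of promoters of tested genes and 27.6% of all promoters in the table. The 3 belong to Cd3d with 3 matches (3 or more were held by 0.776% of all promoters), and to Itga1 and Plscr4 with 1 each. They are printed 5′ to 3′ on the strand of the gene with the matches in capitals (CTTTGA or CTTTGT, and TCAAAG for the other strand).
Cd3d, chr9:44981536-44981785, plus strand: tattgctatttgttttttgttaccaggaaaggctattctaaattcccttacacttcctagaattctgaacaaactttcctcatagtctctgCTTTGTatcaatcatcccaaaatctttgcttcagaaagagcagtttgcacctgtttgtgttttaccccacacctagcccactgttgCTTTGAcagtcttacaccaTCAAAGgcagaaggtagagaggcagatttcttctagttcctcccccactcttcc
Itga1, chr13:115101965-115102214, minus strand: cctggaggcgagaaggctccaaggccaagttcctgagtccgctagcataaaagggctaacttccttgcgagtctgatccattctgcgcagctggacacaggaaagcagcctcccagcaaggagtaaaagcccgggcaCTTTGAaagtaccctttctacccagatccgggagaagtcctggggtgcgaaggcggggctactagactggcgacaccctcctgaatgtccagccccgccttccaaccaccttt
Plscr4, chr9:92457128-92457377, plus strand: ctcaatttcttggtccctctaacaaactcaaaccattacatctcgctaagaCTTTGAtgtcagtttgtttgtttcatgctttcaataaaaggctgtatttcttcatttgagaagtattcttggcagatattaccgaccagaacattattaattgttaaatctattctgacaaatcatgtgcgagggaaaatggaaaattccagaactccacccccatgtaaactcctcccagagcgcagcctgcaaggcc
Among these genes Cd3d and Itga1 were higher and Plscr4 lower in Tcf1KO. The promoters of Apobec2, Entpd1, Klra4, Klra8, Ncr1 and Cd3e held no match in these windows. A match is a description of letters, and no binding was measured in these samples.

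**Figure D1:**
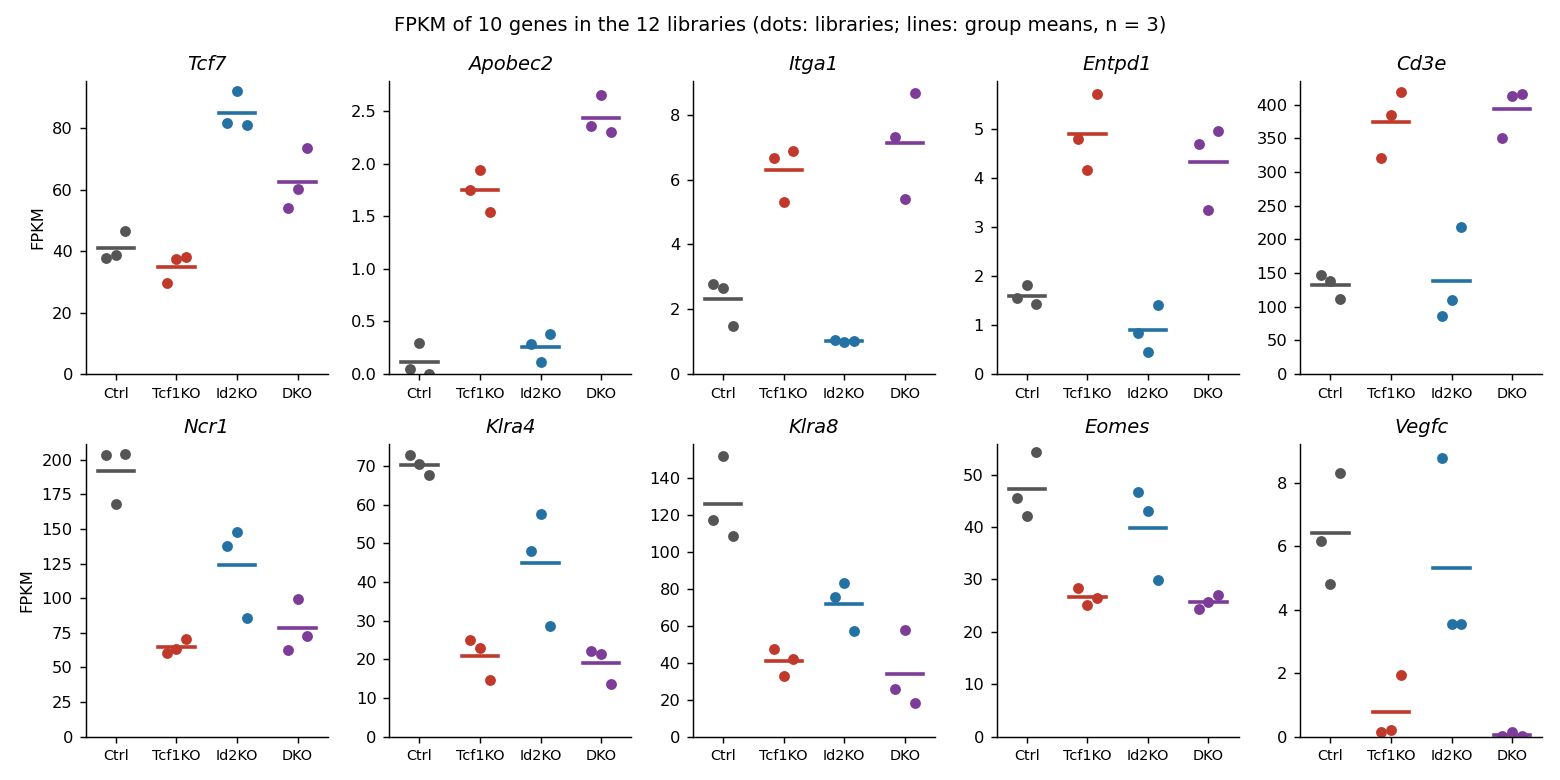
FPKM (vertical axis, linear, from 0) of 10 genes in the libraries of Ctrl, Tcf1KO, Id2KO and DKO, with dots for libraries and lines for group means (n = 3). Tcf7 overlaps between Ctrl and Tcf1KO, whereas the other 9 genes do not: Apobec2, Itga1, Entpd1 and Cd3e are higher in every Tcf1KO library, and Ncr1, Klra4, Klra8, Eomes and Vegfc are lower.

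Apobec2, Itga1, Entpd1, Vegfc and Fgl2 passed in the average, at a threshold of 0.05 also in all 26 or 27 alternative fits that tested them, the omission of each of the 12 libraries included. The highest adjusted p in these limma fits lay just under the threshold for Vegfc (0.0499) and Entpd1 (0.0465). It was 0.0327 for Fgl2, 0.0232 for Apobec2 and 0.0218 for Itga1. Apobec2 belongs to the family of cytidine deaminases and is best known from muscle. It was close to absent in Ctrl, at 0.0507, 0.294 and 0 FPKM (1, 5 and 0 reads), and stood at 1.75, 1.94 and 1.54 FPKM in Tcf1KO (30, 44 and 38 reads). Every Tcf1KO library lay far above every Ctrl library, though on few reads. Apobec2 passed the filter only through Tcf1KO and DKO libraries. The difference was 1.31 ± 0.20 (adjusted p = 0.143), beside 1.45 ± 0.20 in DKO against Id2KO (adjusted p = 0.0226, kept by 5 of 12 omissions), and Apobec2 rose by 1.38 ± 0.14 in the average (adjusted p = 0.00452). The related Apobec3 and Apobec1 differed by 0.10 and -0.28 between Tcf1KO and Ctrl (adjusted p = 0.999 for both).

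Itga1 encodes CD49a, the collagen-binding integrin chain that marks tissue-resident NK cells and type 1 innate lymphoid cells (ILC1). It stood at 2.77, 2.67 and 1.48 FPKM in Ctrl and 6.67, 5.3 and 6.88 in Tcf1KO. All Tcf1KO libraries lay above all Ctrl libraries (2.73 times by the means; difference 1.16 ± 0.21, adjusted p = 0.195). In DKO against Id2KO Itga1 rose by 1.99 ± 0.21 (adjusted p = 0.0069), and in the average by 1.57 ± 0.15 (adjusted p = 0.00452). Entpd1 encodes CD39, an enzyme that breaks down extracellular ATP. Its levels were 1.56, 1.81 and 1.43 FPKM in Ctrl and 4.8, 4.15 and 5.71 in Tcf1KO, again with no overlap (difference 1.17 ± 0.22, adjusted p = 0.195). It rose by 1.51 ± 0.22 in DKO against Id2KO (adjusted p = 0.0311, kept by 2 of 12 omissions) and by 1.34 ± 0.16 in the average (adjusted p = 0.0111).

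Vegfc encodes a growth factor of lymphatic vessels. It stood at 6.15, 4.8 and 8.32 FPKM in Ctrl and 0.164, 0.206 and 1.93 in Tcf1KO. Tcf1KO replicate 3 was the highest of its group and still below every Ctrl library (difference -2.18 ± 0.40, adjusted p = 0.195). Vegfc fell by 2.32 ± 0.28 in the average (adjusted p = 0.0121), with -2.47 ± 0.40 in DKO against Id2KO (adjusted p = 0.0524). Fgl2 encodes a fibrinogen-like protein of mature NK cells. It stood at 36.6, 37.4 and 42.8 FPKM in Ctrl and 61.6, 48.6 and 89.5 in Tcf1KO (difference 0.72 ± 0.24, adjusted p = 0.787). It rose by 2.62 ± 0.24 in DKO against Id2KO (adjusted p = 0.00361). The contrasts differed for Fgl2 at an unadjusted p of 0.000146, so its average of 1.67 ± 0.17 (adjusted p = 0.00452) was carried mainly by DKO against Id2KO. Cd226 encodes DNAM-1, an activating receptor. It was higher in each Tcf1KO library (20.7, 17.3 and 20.4 FPKM in Ctrl, 27, 27.4 and 39.5 in Tcf1KO; difference 0.64 ± 0.17, adjusted p = 0.516), and rose by 0.94 ± 0.12 in the average (adjusted p = 0.0163), which 9 of the 12 omissions of a library kept under 0.05.

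Of 24 tested NK activating and inhibitory receptors and adaptors outside the families described next, 11 had positive and 13 negative differences (median -0.10). In 3 every Tcf1KO library was above Ctrl and in 5 every one below (4.96% and 5.73% of all genes). Ncr1 (ENSMUSG00000062524, chromosome 7, 4337724 to 4345164, plus strand), whose regulation drives Cre here, stood at 203, 168 and 204 FPKM in Ctrl and 60.3, 63.7 and 70.4 in Tcf1KO. The groups were far apart, with a narrow range within Tcf1KO. The difference was -1.55 ± 0.22 (adjusted p = 0.143), and passed with array weights (adjusted p = 0.0397), with voom on the recovered reads (0.0226) and without Id2KO replicate 3 (0.0303), which enters only through the pooled spread. Id2KO libraries, which carry Cre and no floxed Tcf7 by their labels, had 138, 148 and 85.8 FPKM, also below every Ctrl library. They differ from Ctrl in Id2 as well as in Cre, and these cannot be told apart either. Between DKO and Id2KO, where Cre is in both groups, the difference was -0.65 ± 0.22 (adjusted p = 0.311), and the contrasts differed at an unadjusted p of 0.0156. Ncr1 fell by 1.10 ± 0.16 in the average (adjusted p = 0.0208, kept by 3 of 12 omissions), and in the comparison with Ctrl the parts of Tcf7 and of Cre cannot be told apart.

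Ly49 receptors are lectin-like receptors, inhibitory or activating by their tails, that read class I molecules and are carried by subsets of NK cells. Of 12 tested members 9 had negative differences, with a median of -0.52 against -0.002 over all tested genes, and in 5 every Tcf1KO library was below every Ctrl library (5.73% of all genes). Klra4 encodes Ly49D, an activating receptor. It stood at 72.8, 70.5 and 67.6 FPKM in Ctrl and 24.9, 23 and 14.7 in Tcf1KO, 3.37 times lower by the means with no overlap (difference -1.74 ± 0.28, adjusted p = 0.143; 0.0281 with voom and 0.0397 with array weights). Klra8, the gene of Ly49H, which recognises a cytomegalovirus protein and is activating, stood at 117, 152 and 109 FPKM in Ctrl and 47.6, 33 and 42.3 in Tcf1KO (difference -1.60 ± 0.35, adjusted p = 0.318). The pseudogenes Klra13-ps (-1.11 ± 0.27) and Klra14-ps (-1.27 ± 0.27) and Klra9 (-0.65) were also lower in every Tcf1KO library. In the average Klra4 fell by 1.45 ± 0.20 (adjusted p = 0.0208), Klra8 by 1.40 ± 0.24 (0.0439), Klra13-ps by 1.04 (0.0487) and Klra14-ps by 1.14 (0.0392). Of the 12 omissions of a library 6 kept the call of Klra4, and 2 kept each of the other 3.

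The remaining Ly49 genes did not share this pattern. Klra1, which encodes Ly49A, stood at 9.89, 14.8 and 8.15 FPKM in Ctrl and 6.56, 13.2 and 5.05 in Tcf1KO, with overlapping libraries (difference -0.43). Klra6 went the other way, at 51.5, 32 and 42.8 FPKM in Ctrl and 55.5, 110 and 51.7 in Tcf1KO (difference 0.71, adjusted p = 0.977). Klra7 (Ly49G) differed by 0.09 and Klra3 (Ly49C) by -0.61, both with overlap. Ly49 genes and pseudogenes are near-identical in stretches, and how reads were divided among them is uncertain. The median over the list was -0.31 without Ctrl replicate 2 and -0.69 without Ctrl replicate 3. In bulk RNA fewer cells carrying a receptor and less RNA per cell cannot be told apart, here and for every gene below.

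Of 8 tested NKG2 and CD94 receptors, heterodimer chains of a related family, 7 had negative differences (median -0.40). In every Tcf1KO library 5 were lower (5.73% of all genes). Klri2, a lectin-like receptor paired with Klre1, stood at 143, 158 and 191 FPKM in Ctrl and 90.7, 62.1 and 83.3 in Tcf1KO, without overlap (difference -1.06 ± 0.20, adjusted p = 0.195), and fell by 1.02 ± 0.14 in the average (adjusted p = 0.0208, kept by 6 of 12 omissions). Klrk1 (NKG2D) stood at 68.7, 66.1 and 69.3 FPKM and 45.6, 53.5 and 53.9 (difference -0.41 ± 0.16, adjusted p = 0.977). Klrd1 (CD94), Klre1 and Klrc3 differed by -0.44, -0.39 and -0.62, while Klrc1 (NKG2A) differed by 0.14 with overlap. Of 7 tested NKR-P1 receptors and their Clr ligands 3 had positive differences (Klrb1 0.25, Clec2i 0.04 and Clec2d 0.03, all with overlap) and 4 negative ones (median -0.26). Klrb1a stood at 30.3, 40.7 and 46.5 FPKM in Ctrl and 17.9, 16.4 and 15.5 in Tcf1KO (difference -1.17 ± 0.37, adjusted p = 0.741), and Klrb1f differed by -0.70. Klrb1c, which encodes the NK1.1 antigen used in the sort, differed by -0.28 ± 0.16 (adjusted p = 0.999), Itga2, which encodes CD49b, the other antigen of the sort, by -0.26 without overlap, and Klrb1b overlapped between the groups (-0.26) whereas it rose by 2.18 in DKO against Id2KO (adjusted p = 0.0121).

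Among the signalling adaptors of these receptors, Tyrobp and Fcer1g were lower in every Tcf1KO library, while Hcst (DAP10, 0.19) and Cd247 (0.07) overlapped. Tyrobp (DAP12), the partner of Ly49D and Ly49H, stood at 1041, 1409 and 1352 FPKM in Ctrl and 883, 663 and 733 in Tcf1KO (difference -0.74 ± 0.23, adjusted p = 0.712). Fcer1g, the partner of NKp46, stood at 755, 909 and 806 FPKM and at 626, 615 and 561 (difference -0.45 ± 0.13, adjusted p = 0.662). Neither passed, and the libraries overlapped in neither. On chromosome 6, between the outermost tested Klr genes of the NK gene complex (128609227 to 131247362, GRCm38), 12 of 36 tested genes had an unadjusted p under 0.05 (33.3%), against 3.83% of the 522 other genes of the chromosome, receptor segments left out. The window was chosen after its genes had been seen. Within 5000000 bases of Tcf7 it was 5 of 86 genes (5.81%) and around Ncr1 1 of 41 (2.44%), near the 4.8% of all genes.

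Transcription factors of NK cells did not move one way: 16 of 43 tested members had positive and 27 negative differences, with a median of -0.11. In Tcf1KO 3 were fully higher and 4 fully lower (4.96% and 5.73% of all genes). Eomes, a T-box factor that sets conventional NK cells apart from ILC1, stood at 45.5, 42.1 and 54.4 FPKM in Ctrl and 28.5, 25.1 and 26.4 in Tcf1KO. The 3 Tcf1KO values lay close together, all below Ctrl (difference -0.80 ± 0.17, adjusted p = 0.318), and Eomes fell by 0.69 ± 0.12 in the average (adjusted p = 0.0454), a call kept by 1 of 12 omissions (highest adjusted p = 0.143). Tbx21, the gene of T-bet, the other T-box factor, overlapped, at 29, 23.9 and 31.3 FPKM in Ctrl and 30.3, 39 and 31.7 in Tcf1KO (difference 0.25). Myb, a factor of progenitors, stood at 7.86, 9.43 and 8.61 FPKM and at 5.25, 4.62 and 4.02 (difference -0.78 ± 0.18, adjusted p = 0.324), and fell by 0.83 ± 0.12 in the average (adjusted p = 0.0255, kept by 3 of 12 omissions). Its group values did not overlap. Nfil3, a factor needed for NK cells to arise, stood at 14.3, 15.9 and 41.7 FPKM in Ctrl, replicate 3 the highest, and at 11.3, 6.62 and 13.9 in Tcf1KO (difference -1.0).

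Ikzf2 encodes Helios, an Ikaros family factor. It stood at 12.4, 12.6 and 12.2 FPKM in Ctrl and 25.7, 35.5 and 28.7 in Tcf1KO, more than the spread of either group apart (difference 1.19 ± 0.23, adjusted p = 0.249), and rose by 1.16 ± 0.17 in the average (adjusted p = 0.0208, kept by 3 of 12 omissions). Zfp683, the gene of Hobit, a factor of tissue-resident lymphocytes, stood at 6.17, 2.87 and 6.33 FPKM in Ctrl and 13.3, 9.7 and 11.7 in Tcf1KO (difference 1.09 ± 0.30, adjusted p = 0.554). Bcl11b, a T cell lineage factor and known TCF-1 target, stood at 0.949, 2.1 and 0.957 FPKM and at 3.45, 3.11 and 3.75 (difference 0.96 ± 0.37, adjusted p = 0.978). Neither Zfp683 nor Bcl11b passed in the average. Among 17 tested Wnt and TCF target genes 7 had positive and 10 negative differences (median -0.19). Rnf43, a Wnt feedback gene, stood at 2.76, 1.81 and 2.44 FPKM in Ctrl and 1.24, 1.03 and 1.34 in Tcf1KO (difference -0.59 ± 0.21, adjusted p = 0.833), and Axin2 overlapped (-0.19).

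T cell receptor (TCR) genes were the other group with large differences. NK cells transcribe CD3 chains and unrearranged receptor genes to some degree, and NKT cells and gamma delta T cells can also carry NK1.1. Of 20 tested members of the TCR complex and its signalling 14 had positive differences (median 0.46), and 10 were higher in every Tcf1KO library (4.96% of all genes), 2 lower. Cd3e stood at 147, 139 and 111 FPKM in Ctrl and 320, 386 and 419 in Tcf1KO. The groups were well apart (difference 1.50 ± 0.28, adjusted p = 0.195, 0.0303 without Id2KO replicate 3). In DKO against Id2KO it differed by 1.61 ± 0.28 (adjusted p = 0.0891), and Cd3e rose by 1.55 ± 0.20 in the average (adjusted p = 0.0163), kept by 8 of 12 omissions of a library.

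Cd3d encodes another chain of the complex. It stood at 29.8, 28 and 26.6 FPKM in Ctrl and 51.6, 70.6 and 68.3 in Tcf1KO, with no overlap (difference 1.14 ± 0.20, adjusted p = 0.171). In DKO against Id2KO its sign was opposite (-0.46 ± 0.20, adjusted p = 0.417), and the Id2KO libraries held 67.2, 103 and 61.5 FPKM, all above Ctrl. The contrasts differed at an unadjusted p of 0.000128. Cd3g stood at 23.1, 40 and 32.4 FPKM and at 56.1, 62 and 67 (difference 0.96 ± 0.22, adjusted p = 0.328). Cd247, the zeta chain that NKp46 also uses, overlapped and differed by 0.07. The kinase Lck (-0.08) overlapped too, and Zap70 (-0.25) was lower in every Tcf1KO library.

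The receptor chains themselves split by locus and by cluster. Trac, the alpha constant gene, stood at 141, 194 and 190.0 FPKM in Ctrl and 338, 498 and 455 in Tcf1KO (difference 1.29 ± 0.26, adjusted p = 0.298), and rose by 1.23 ± 0.19 in the average (adjusted p = 0.0255, kept by 2 of 12 omissions). Among 81 tested V and J segments of the alpha locus 76 had positive differences (median 1.26). In every Tcf1KO library 32 were higher and 0 lower (4.96% and 5.73% of all genes). Positive differences in DKO against Id2KO were found for 71 of 81 (median 1.34). The 81 are those of 92 alpha segments that passed the filter. Segments near 0 in Ctrl could pass only through groups where they were higher, which partly set their sign. Trav8d-1, at 0 in every Ctrl and Id2KO library, is an example. The summed level of the 81 was 307, 441 and 430.3 FPKM in Ctrl and 719, 1321 and 1040.0 in Tcf1KO. J segments are short and thinly covered: Traj13 had 1, 0 and 0 reads in Ctrl and 19, 31 and 36 in Tcf1KO, and rose by 3.35 in the average (adjusted p = 0.0385). Traj23 had 5, 12 and 2 reads and 27, 72 and 88, and rose by 2.23 (adjusted p = 0.037). Both calls were kept by 3 of 12 omissions. Traj18, the joining segment of invariant NKT cells, stood at 8.41, 24.9 and 16.7 FPKM in Ctrl and 28, 43.2 and 28.5 in Tcf1KO, with a narrow gap between the groups.

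In the beta locus the J segments of the first cluster were lower while V segments and the second constant gene were higher. All 7 Trbj1 segments had negative differences, -0.91 to -1.62 (median -1.39), and 5 were lower in every Tcf1KO library (5.73% of all genes). Their sum was 579, 554 and 591 FPKM in Ctrl and 270.3, 199 and 227 in Tcf1KO. Trbj1-1 had 163, 115 and 188 reads in Ctrl and 62, 68 and 84 in Tcf1KO (difference -1.27), and fell by 1.43 in the average (adjusted p = 0.0289). Trbj1-6 fell by 1.04 (adjusted p = 0.037). The calls were kept by 2 and 1 of 12 omissions. The 7 segments were also all negative in DKO against Id2KO (median -1.02). Trbj2 segments had 5 positive and 2 negative differences (median 0.79), and all 17 tested Trbv segments were positive (median 1.04). Of these 17, 8 were higher in every Tcf1KO library (4.96% of all genes). The constant genes followed their clusters: Trbc1 stood at 427, 447 and 318 FPKM in Ctrl and 246, 316 and 268 in Tcf1KO, and Trbc2 at 262, 297 and 287 and at 378, 526 and 509 (differences -0.51 and 0.72, adjusted p = 0.987 and 0.516). Segment classes were chosen after the values had been seen, and a sum over segments that differ in length is a description only.

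**Figure D2:**
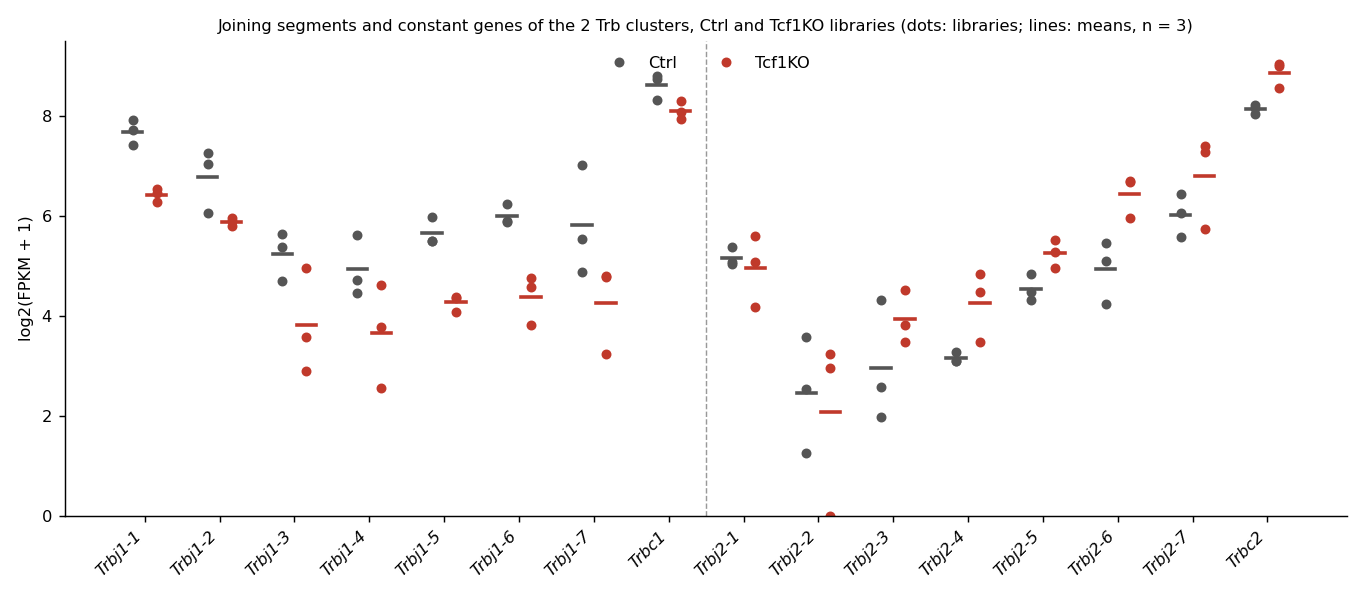
Levels as log2(FPKM + 1) (vertical axis) of the joining segments and constant genes of both Trb clusters, in order along the locus, in Ctrl and Tcf1KO libraries (dots) with group means (lines, n = 3). All 7 Trbj1 segments and Trbc1 have lower means in Tcf1KO, and Trbj2-3 to Trbj2-7 and Trbc2 higher ones.

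Genes of the gamma chain had positive differences as well. Tcrg-C4 stood at 62.2, 90.3 and 59 FPKM in Ctrl and 212, 122 and 266 in Tcf1KO (difference 1.44 ± 0.29, adjusted p = 0.257), and rose by 1.21 ± 0.20 in the average (adjusted p = 0.0385, kept by 1 of 12 omissions). Tcrg-C1 and Tcrg-C2 differed by 0.84 and 1.03, also without overlap. All 7 tested gamma V and J segments were positive (median 1.26), and their sum was 85, 124 and 60.2 FPKM in Ctrl and 268, 195 and 391 in Tcf1KO. Of these, Tcrg-V3 reached FPKM 1 only in Tcf1KO and DKO libraries, and Tcrg-V5 and Tcrg-V6 in no Ctrl library. For these segments the filter partly set the sign. Of the 505 tested genes on chromosome 14, which carries the alpha and delta loci, 8.91% had an unadjusted p under 0.05, and 2.89% of the 415 left when receptor genes were taken out. Delta segments, which lie inside the alpha locus, had 3 positive and 4 negative differences (median -0.11). Of 99 immunoglobulin segments, which belong to B cells, 9 passed the filter, and all 9 had positive differences (median 0.81). In 2, Ighj2 and Igkj5, every Tcf1KO library was above every Ctrl library (4.96% of all genes). Those 2 had 1, 6 and 19 and 2, 1 and 18 reads in Tcf1KO. They passed the filter mainly through these libraries, which largely set their sign. Sums over the 9 were 32.9, 16.8 and 13.3 FPKM in Ctrl and 33.2, 27.7 and 85.5 in Tcf1KO.

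Some markers of whole T cells were higher in every Tcf1KO library and others overlapped. Cd8a stood at 2.94, 3.54 and 1.86 FPKM in Ctrl and 6.61, 13.6 and 15 in Tcf1KO (difference 1.71, adjusted p = 0.516). Cd5 differed by 1.41 without overlap, and Cd4 overlapped (0.26). Cd8b1 stood at 0.087, 2.47 and 0.432 FPKM in Ctrl and 1.1, 3.91 and 7.68 in Tcf1KO, with overlap. Of 11 tested NKT and gamma delta T markers 7 had positive differences (median 0.39, 0.09 without Ctrl replicate 3). The 3 gamma constant genes and Ly6c2 made up the 4 that did not overlap, all higher in Tcf1KO (4.96% of all genes). Zbtb16, the factor that defines NKT cells (2.63, 0.744 and 2.85 FPKM in Ctrl, 2.68, 0.918 and 1.74 in Tcf1KO), and Maf overlapped. Of the interleukin 17 program of gamma delta T cells, Il17a was at 0 in all 6 libraries. Ptcra, the pre-TCR chain of thymocytes, was at 0. The summed level of the 11 markers was 284 to 466 FPKM in Ctrl and 654 to 812 in Tcf1KO. The part of T cells within the sort in the TCR results was not tested.

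Marker sums of other lineages overlapped between Ctrl and Tcf1KO. Myeloid and neutrophil markers (21 tested, 14 positive) summed to 940.5 to 3705 FPKM in Ctrl and 1235 to 4429 in Tcf1KO, erythroid markers (15 tested, 14 positive) to 782 to 4869 and 1363 to 3603, basophil and mast cell markers (12 tested, 3 positive) to 734 to 1141 and 384 to 1337, and B and plasma cell markers (6 tested, 5 positive, median 0.51) to 192 to 557 and 287 to 411. Between DKO and Id2KO, which enter the average, 20 of the 21 myeloid markers (median 0.83), 14 of the 15 erythroid (1.25), 12 of the 12 basophil and mast cell (1.39) and 5 of the 6 B and plasma cell markers (0.55) had positive differences. The part of these cells in the calls of the average was not tested beyond the fit that follows. The average called 29 genes in place of 46 with a score of 48 myeloid, erythroid and basophil and mast cell markers as a term. B and plasma cell markers were not in the score. With the same score in the fit, chosen with earlier results known, the median was 0.46 over TCR genes, 1.31 over alpha segments and -0.55 over Ly49 receptors, near the values without it. No list of T cell markers is in the score, so these medians do not test the part of T cells within the sort.

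**Figure D3:**
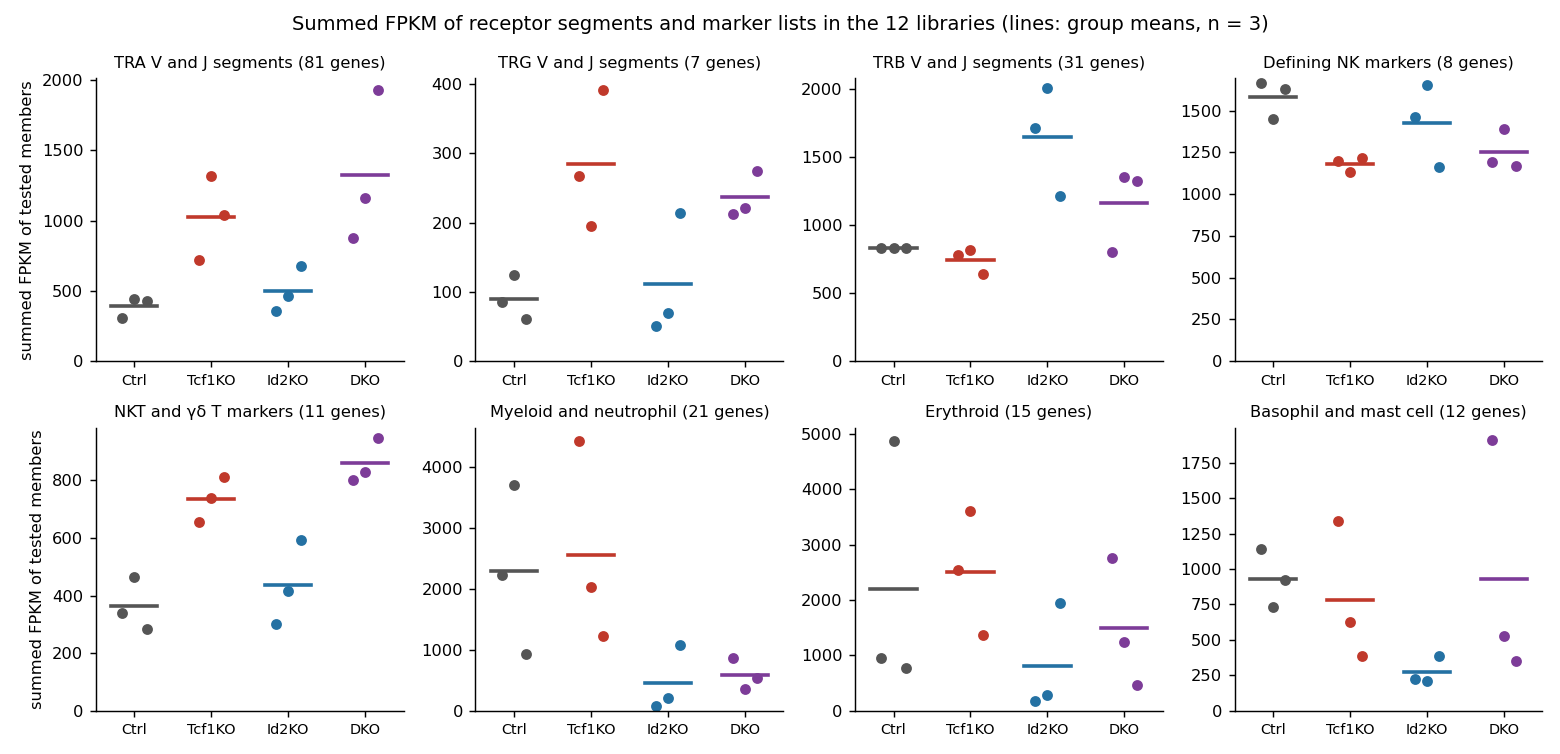
Summed FPKM (vertical axes, linear, from 0) of receptor segments and marker lists in the 12 libraries, with dots for libraries and lines for group means (n = 3). Alpha and gamma segments and NKT and gamma delta T markers are higher in every Tcf1KO than in every Ctrl library, defining NK markers lower, and the myeloid, erythroid and basophil sums overlap.

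ILC1 and tissue-resident features had 16 of 26 tested members with positive differences (median 0.26, 0.10 without Ctrl replicate 2). Of the 26, 8 were higher in every Tcf1KO library and 2 lower (4.96% and 5.73% of all genes). Cd3e, Cd3g and Cd5 are on this list as well. Beside Itga1, Tnfsf10, the gene of the death ligand TRAIL, stood at 8.81, 10.2 and 10.2 FPKM in Ctrl and 14.9, 23.8 and 22.8 in Tcf1KO (difference 0.98 ± 0.24, adjusted p = 0.426), and rose by 1.05 ± 0.17 in the average (adjusted p = 0.037, kept by 2 of 12 omissions). Il21r, the receptor of interleukin 21, differed by 1.0 (adjusted p = 0.568) and Cd160, an activating receptor, by 0.68, both without overlap. Cxcr6, the chemokine receptor of tissue residency, overlapped (8.93, 13.2 and 3.69 FPKM in Ctrl, 12.5, 12.9 and 38.2 in Tcf1KO). Kit, the stem cell factor receptor, was lower, at 3.3, 2.62 and 2.1 FPKM in Ctrl and 1.6, 1.0 and 0.768 in Tcf1KO (difference -0.80 ± 0.23, adjusted p = 0.632), and fell by 0.96 ± 0.16 in the average (adjusted p = 0.0385, kept by 1 of 12 omissions). Il7r differed by -0.84 with overlap.

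Mature NK markers had 10 positive and 18 negative differences of 28 (median -0.15), and 22 positive ones of 28 in DKO against Id2KO (median 0.51). Klrg1, an inhibitory receptor of terminal maturation, stood at 26.1, 28.9 and 17.8 FPKM in Ctrl and 30.2, 43.2 and 33.6 in Tcf1KO (difference 0.55), and Cx3cr1 and S100a4 were also higher in each Tcf1KO library (0.96 and 0.85), while Prf1, Lgals1 and Anxa2 were lower in each. S1pr5, the receptor for exit from bone marrow, overlapped (-0.68), as did Zeb2 (0.04). Cytotoxic granule genes had a median of 0.07 with 15 of 22 positive, but 1 was higher and 5 lower in every Tcf1KO library (4.96% and 5.73% of all genes). Gzmb, which encodes granzyme B, overlapped at 148, 108 and 97.2 FPKM in Ctrl and 104, 157 and 163 in Tcf1KO (difference 0.26, adjusted p = 0.999), Gzma differed by 0.07, and perforin (Prf1) stood at 66.2, 68.6 and 79.1 FPKM and at 42.7, 48.9 and 57.9 (difference -0.51 ± 0.26, adjusted p = 0.999). Prf1 had the opposite sign in DKO against Id2KO (0.53, adjusted p = 0.501).

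**Figure D4:**
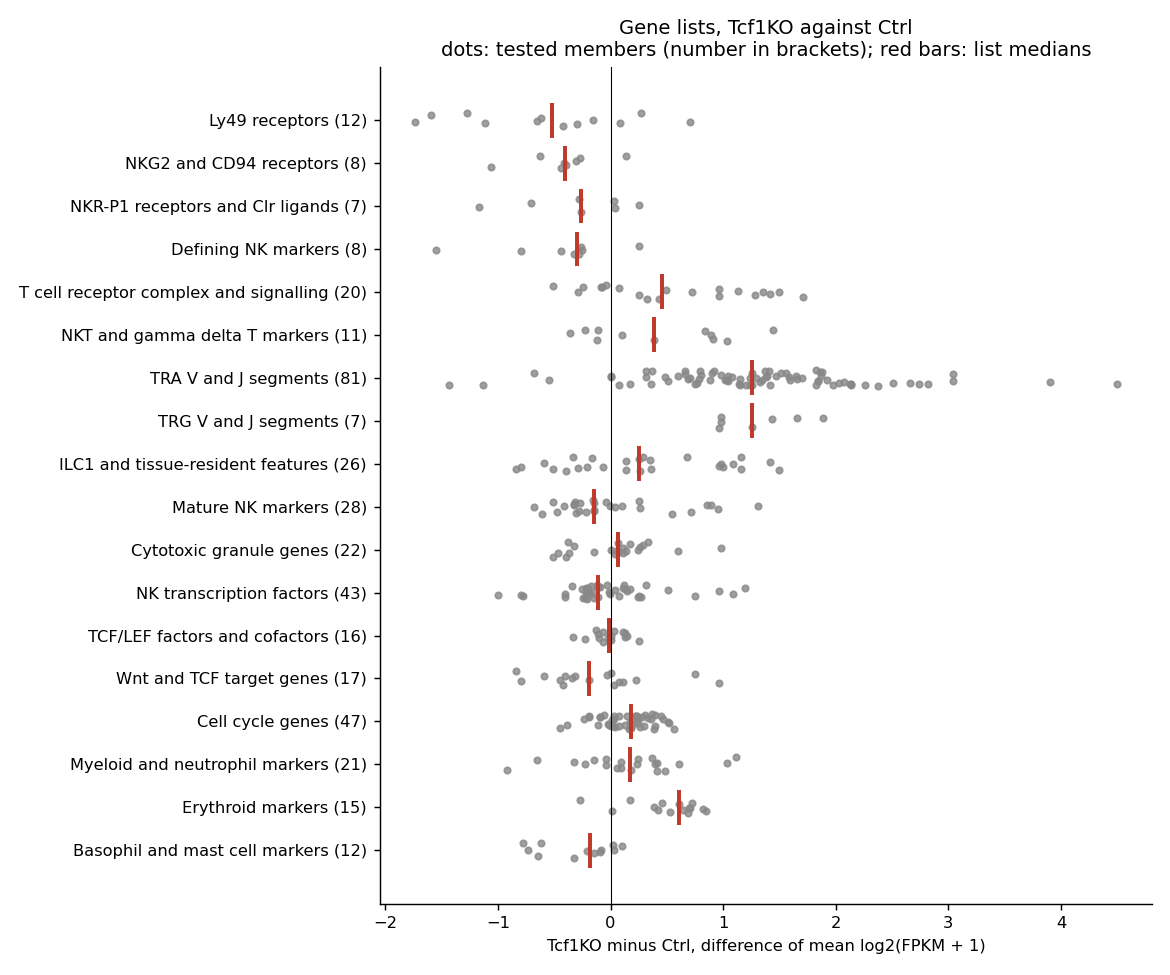
Differences of mean log2(FPKM + 1) between Tcf1KO and Ctrl (horizontal axis) for the tested members of 18 gene groups (dots, number in brackets) with the median of each (red bar). Ly49 receptors centre on -0.52 and alpha segments on 1.26, while TCF/LEF factors lie around -0.01.

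Groups that follow proliferation or handling of cells differed little in Tcf1KO. Of 47 cell cycle genes 36 had positive differences, with a median of 0.18 that was 0.01 without Tcf1KO replicate 1 and 0.03 without Ctrl replicate 3. In DKO against Id2KO 41 of the 47 were negative (median -0.48). Cdk1, the mitotic kinase, stood at 3.94, 2.74 and 2.97 FPKM in Ctrl and 5.3, 4.59 and 4.29 in Tcf1KO (difference 0.45 ± 0.17, adjusted p = 0.978), against -0.84 in DKO against Id2KO (adjusted p = 0.121). Immediate early genes, which respond to handling of cells, had 19 of 22 negative differences in Tcf1KO (median -0.20) and 20 of 22 positive ones in DKO against Id2KO. Their median in Tcf1KO turned to 0.19 without Ctrl replicate 3 and 0.09 without Tcf1KO replicate 2, and was -0.58 without Ctrl replicate 2.

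Of the 24 genes of smallest p not yet described, Cd38, an enzyme on activated lymphocytes, stood at 8.56, 11.4 and 5.75 FPKM in Ctrl and 16.9, 20.9 and 23.7 in Tcf1KO (difference 1.20 ± 0.27, adjusted p = 0.321), and rose by 1.18 ± 0.19 in the average (adjusted p = 0.0341, kept by 2 of 12 omissions). Adamts14, a protease of procollagen, stood at 35, 27.2 and 39.6 FPKM and at 13.5, 12.5 and 14.4 (difference -1.26 ± 0.22, adjusted p = 0.171), and fell by 0.99 ± 0.15 (adjusted p = 0.0289, kept by 3 of 12 omissions). Plscr4, of the phospholipid scramblase family, stood at 3.84, 4.3 and 3.38 FPKM and at 1.27, 0.927 and 0.486, the lowest in Tcf1KO replicate 3 (difference -1.37 ± 0.20, adjusted p = 0.143), and fell by 1.0 ± 0.14 (adjusted p = 0.0208, kept by 3 of 12 omissions). Cd55, which protects cells from complement, stood at 8.9, 9.19 and 8.34 FPKM in Ctrl and 4.66, 6.0 and 4.34 in Tcf1KO (difference -0.72 ± 0.16, adjusted p = 0.321), and Arhgef5, a guanine nucleotide exchange factor, differed by -1.04 ± 0.21. Neither passed in the average.

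A further 4 had the opposite sign in DKO against Id2KO, as Cd3d did. Hdac4, a histone deacetylase, stood at 4.25, 3.19 and 3.5 FPKM in Ctrl and 6.61, 6.55 and 6.26 in Tcf1KO (difference 0.69 ± 0.15), with -0.20 in DKO against Id2KO. Suox, sulfite oxidase, stood at 3.13, 1.28 and 1.88 FPKM and at 8.84, 8.13 and 4.78 (difference 1.42 ± 0.31), with -0.23. Fam84a stood at 0.256, 0.254 and 0.163 FPKM and at 2.0, 1.86 and 1.11 (difference 1.10 ± 0.25), with -0.17. It passed the filter only through the Tcf1KO libraries. Its levels were 0.125, 0.396 and 0.306 FPKM in Id2KO and 0.376, 0.0375 and 0 in DKO, so its sign there rests on values below the filter. The small nucleolar RNA gene Snord110 rests on 4 to 11 reads in Ctrl and 1 to 3 in Tcf1KO (difference -1.52 ± 0.32), with 1.02. Unadjusted p-values for the difference of the contrasts were 0.00156, 0.00351, 0.00371 and 0.000175, and none passed after adjustment over all genes.

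Of the 24 genes of smallest p 19 had the same sign in DKO against Id2KO, 8 of the 12 higher and 11 of the 12 lower. Adjusted p-values there are given above for some of these genes and are not independent support. Both contrasts share 1 estimate of each gene's spread, and the genes were chosen by a small p. The average also holds the contrast by which they were chosen. Over all tested genes the sign was the same in 54.9%, and over the 594 genes with an unadjusted p under 0.05 in 64.8%. Among those that passed in DKO against Id2KO, several had smaller or opposite differences in Tcf1KO, and the difference of the contrasts passed for none. Plxnc1, a semaphorin receptor, fell by 1.40 there (adjusted p = 0.0106) and differed by -0.24 between Tcf1KO and Ctrl. Plcd3, a phospholipase, fell by 2.02 (adjusted p = 0.0121) and differed by -0.41. Id2 rose by 1.18 (adjusted p = 0.0205) and differed by -0.41 ± 0.16 (124, 163 and 170.0 FPKM in Ctrl, 114, 102 and 126 in Tcf1KO). Its levels were 17.8, 17.15 and 19.2 FPKM in Id2KO and 48.8, 41.2 and 36.8 in DKO, so these groups also differed in Id2 RNA. The part of this in DKO against Id2KO and in the average was not tested.

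**Figure D5:**
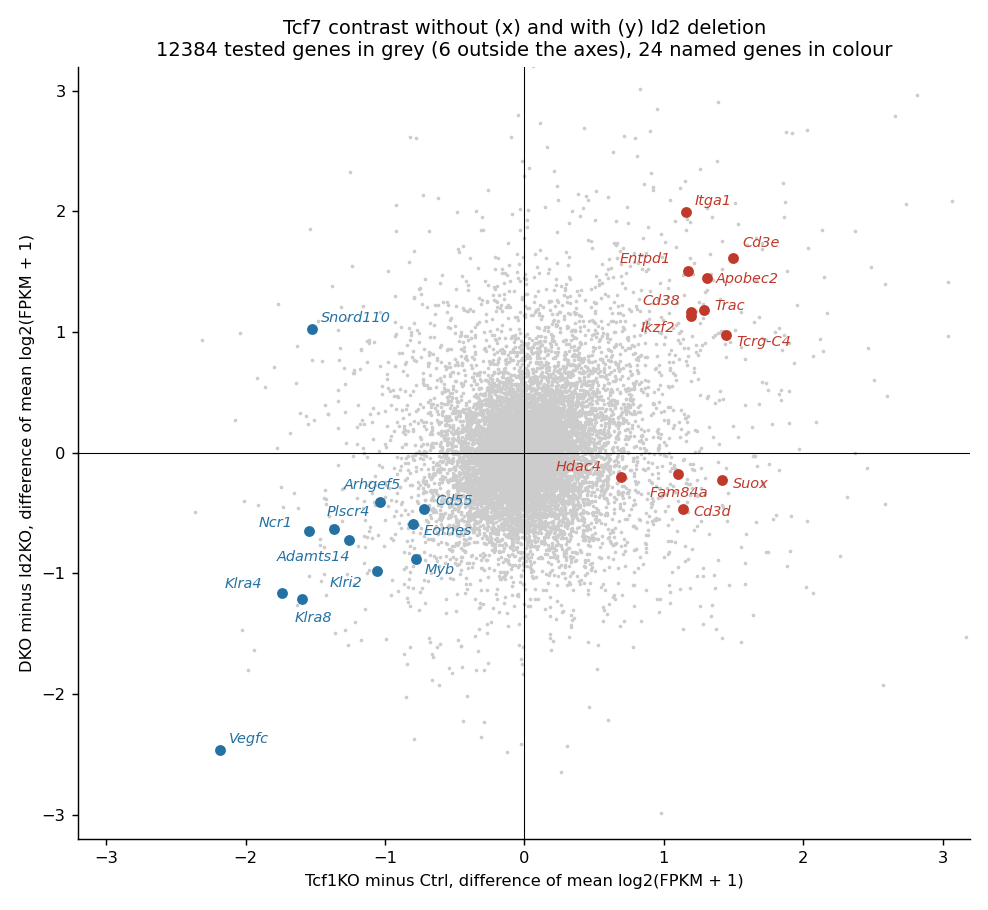
Differences of mean log2(FPKM + 1) in Tcf1KO against Ctrl (horizontal axis) and DKO against Id2KO (vertical axis) for 12384 tested genes (grey, 6 outside the axes) and the 24 named genes (red higher, blue lower in Tcf1KO). Most named genes lie in the lower left and upper right quadrants, and Cd3d, Suox, Fam84a, Hdac4 and Snord110 do not.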

How the data were processed

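RNA of sorted bone marrow NK cells was sequenced in 12 libraries, 3 in each of 4 groups. The authors deposited FPKM values for 37991 genes. Tools listed in the submitters' processing notes are HTSeq 0.6.1, TopHat2 2.1.0, Trimmomatic 0.33 and edgeR (no version), and the build listed is mm10. Library preparation used Ovation Ultralow kits and NextSeq500 sequencing per the labels' protocols. How the FPKM values were scaled, and whether counting used strand, is not given in the sources used here.

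Gene names, biotypes and positions came from GENCODE M21 (GRCm38) for 32938 gene IDs; 5053 had no match there. The deposited FPKM values were whole multiples of 1 read for 23707 of 23707 genes above 0 (100.0%, tolerance 0.001 reads), so whole reads per gene were recovered. They summed to 13975523 to 20208160 per library and served for read numbers and the voom alternative. These depths bound the precision of low genes.

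Testing was on log2(FPKM + 1) for the 12384 genes that reached FPKM 1 in no fewer than 3 libraries, where a pseudocount of 1 understates changes of low genes. The filter counts all 12 libraries, so a gene near 0 in Ctrl could pass only through groups where it was higher. One model of the 4 groups was fitted to all 12 libraries with R 4.3.3 and limma 3.58.1 (two-sided, eBayes with a variance trend), with Benjamini-Hochberg adjustment per contrast and a threshold of 0.05. An exact permutation test of 3 against 3 libraries cannot go below 0.1. The contrasts were Tcf1KO against Ctrl, DKO against Id2KO and their difference. Their average was added after seeing the data. The procedure was tested on simulated data. Software for tables was Python 3.11.15 with numpy 2.4.6 and pandas 2.3.3, and for plots matplotlib 3.10.9.

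The named genes are Tcf7, Lef1, Klra4, Cd3e, Itga1, Apobec2 and Ncr1; the 12 genes in each direction with the smallest unadjusted p among those whose libraries did not overlap, passing over predicted genes and receptor segments; the 4 members of smallest p in each of 30 gene lists; and up to 10 genes in each direction that passed in DKO against Id2KO. Any other gene was named after its values were seen. The samples, genes and lists were chosen with earlier results of these data known. Lists are described by counts and medians, with no test of their own.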

Additional observations from a re-analysis of the deposited data

How the results depend on the processing

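The count of genes called between Tcf1KO and Ctrl, 0, became 1 with no filter on low values (Ldb2), 7 with array weights, 2 with voom on recovered reads (Klra4 and Ncr1), 4 without the 3 libraries with the lowest array weights, 1 when only both compared groups were fitted (Traj13), and 0 to 3 when 1 library was left out, the 3 (Cd3e, Ncr1, Trgv2) without Id2KO replicate 3. The other settings gave 0. For DKO against Id2KO, 15 became 8 with a filter at FPKM 5, 0 when only both compared groups were fitted, 3 at a threshold of 0.01, and 2 (without Id2KO replicate 2) to 31 (without Id2KO replicate 3) when 1 library was left out. The difference of the contrasts, 0, became 1 without a variance trend and 0 to 1 when 1 library was left out. The average, 46, became 20 with no filter, 89 with array weights, 29 with an other-lineage score as a term, 3 at a threshold of 0.01, and 5 (without Id2KO replicate 2) to 69 when 1 library was left out. The causes were not tested.

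With the replicate number as a block, 0 genes were called between Tcf1KO and Ctrl and 28 in the average. Same-numbered Ctrl and Tcf1KO libraries had correlations of 0.068, 0.142 and 0.236 between their deviations, and differently numbered ones -0.193 to 0.079. In Tcf1KO replicates 2 and 3 the highest correlation was with the own number, in replicate 1 it was with Ctrl replicate 2 (0.079). Replicate 1 was also the library with Xist near 0 in both groups. The labels call the samples independent, and whether same-numbered samples share more than a number was not tested.

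Of 2190 single-gene values over 76 genes, 2146 kept direction and side of the threshold, 34 newly passed and 10 changed sign. In the average the sign changed for Cdk1 (-0.194), Id2 (0.386), Itgam (0.564), Klrb1b (0.958), Pbk (-0.337) and Prf1 (0.006). Lef1, near 0, went to -0.08 with array weights and -0.126 without the 3 lowest-weight libraries, and lay between -0.126 and 0.158 when 1 library was left out.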

Other observations

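Ldb2, which encodes a LIM domain binding cofactor, was too low for the filter and was called only when no filter was applied (adjusted p = 0.0444 over 23707 genes). It stood at 0.0121, 0.056 and 0.012 FPKM in Ctrl and 0.556, 0.695 and 0.407 in Tcf1KO, with every Tcf1KO library above every Ctrl library. In Id2KO and DKO it was listed at 0 in all 6 libraries, so the second contrast gives no value for it.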
